A study of Mus musculus with 4 samples.

Results

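Innate lymphoid cells of the mouse hindpaw were divided by whether they held transcripts of Il13, the gene of the type 2 cytokine interleukin-13, and the rest of the transcriptome was compared between the divided cells. The cells were selected on their own counts of unique molecular identifiers (UMIs, 1 per captured transcript). A cell had to show at least 200 genes, at most 10% of its UMIs from mitochondrial genes, at least 2 UMIs of Gata3, at least 1 UMI of Ctla2a and Il7r together, no UMI of Cd3e, Trac or Foxp3, fewer than 5 UMIs of C1qa, C1qb and C1qc together and less than 1% of its UMIs from Cpa3, Cma1, Mcpt4 and Tpsb2. Of 30793 cell barcodes, 27800 met the first 2 limits and 2999 met all of them. Those 2999 cells were grouped by their Il13 UMIs: 700 with at least 2 UMIs were called Il13-positive, 1992 with none were called Il13-negative, and 307 with 1 UMI were set aside. All other genes were read from the summed UMIs of each group in each library, so that 4 pairs of sums were compared.

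The libraries came from CD45+ leukocytes sorted from both hindpaws of male mice. DB mice were Lepr db/db (C57BLKS/J-Dock7m +/+ Leprdb), which lack the signalling leptin receptor in every tissue and become obese and diabetic, and WT mice were their Lepr WT/WT littermates. Each genotype was taken at 12 and at 21 weeks of age, labelled young and aged, which gave 12-week-WT and 21-week-WT controls and 12-week-DB and 21-week-DB diabetic mice, and the labels give no other treatment. One library was made per condition from pooled cells of 2 to 3 mice, so mice cannot be told apart within a library, genotype and age are each carried by 2 libraries, and p-values below describe the spread of the Il13 difference over the 4 libraries. Where 4 values follow each other, 12-week-WT stands first, 12-week-DB second, then 21-week-WT, and 21-week-DB last.

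Group 2 innate lymphoid cells (ILC2s) are tissue-resident lymphocytes without a rearranged antigen receptor. They depend on the transcription factors Gata3 and Rora and answer epithelial alarmins (IL-33, IL-25 and TSLP), lipid mediators, neuropeptides and IL-2 family cytokines by secreting IL-13, IL-5, GM-CSF and amphiregulin. In skin these factors recruit eosinophils, steer macrophages and act on keratinocytes and fibroblasts. Il13 lies in the type 2 cytokine locus, a gene cluster in which Il4, Il13, Rad50 and Il5 are neighbours, with Irf1, Csf2 (GM-CSF) and Il3 further along. On chromosome 11 of the GRCm38 build, GENCODE M21 places Il4 at chr11:53602982-53618669 on the minus strand, Il13 at chr11:53631324-53634702 on the minus strand, Il5 at chr11:53720794-53725106 on the plus strand and Csf2 at chr11:54247271-54249667 on the minus strand.

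The promoters of Il13, which divided the cells, and of Il5 and Csf2, cytokine genes of the same locus, are shown because Gata3 was part of the gate and binds GATA motifs. Each line holds the 250 bases before the RefSeq start (GRCm38.p6), read on the gene's own strand. They span chr11:53634703-53634952 (minus strand) for Il13, chr11:53720544-53720793 (plus strand) for Il5 and chr11:54249900-54250149 (minus strand) for Csf2. For Csf2 the RefSeq start lies upstream of the GENCODE start given above, so its window does not adjoin that gene body. Capitals mark the word AGATAA, the word AGATAG, the word TGATAA or the word TGATAG, searched on both strands.
Il13: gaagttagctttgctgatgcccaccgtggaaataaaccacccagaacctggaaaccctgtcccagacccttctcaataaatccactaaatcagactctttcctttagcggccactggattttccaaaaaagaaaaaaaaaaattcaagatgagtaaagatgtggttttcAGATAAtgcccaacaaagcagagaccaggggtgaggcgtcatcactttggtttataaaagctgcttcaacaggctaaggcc
Il5: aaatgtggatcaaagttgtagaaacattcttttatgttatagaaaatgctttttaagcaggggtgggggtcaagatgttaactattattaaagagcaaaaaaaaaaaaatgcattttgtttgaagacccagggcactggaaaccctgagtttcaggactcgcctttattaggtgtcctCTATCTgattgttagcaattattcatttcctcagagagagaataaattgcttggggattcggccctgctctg
Csf2: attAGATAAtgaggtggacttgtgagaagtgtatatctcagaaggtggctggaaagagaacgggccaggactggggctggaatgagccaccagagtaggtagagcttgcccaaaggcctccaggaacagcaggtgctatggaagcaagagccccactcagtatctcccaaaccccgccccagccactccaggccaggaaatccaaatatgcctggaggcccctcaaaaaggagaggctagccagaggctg
Each window held 1 such word, which began 81 bases before the start of Il13, 72 bases before that of Il5 (as CTATCT, the reverse complement of AGATAG) and 247 bases before that of Csf2. Of 32817 mouse promoter windows of the same length, 26.6% held at least 1 of these words, so the matches describe the letters and no occupied site.

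The Il13-positive cells numbered 93, 126, 138 and 343 and the Il13-negative cells 217, 535, 344 and 896. Il13-positive cells were 25.9% (95% exact binomial interval 21.4 to 30.8), 17.4% (14.7 to 20.4), 25.4% (21.8 to 29.3) and 25.0% (22.7 to 27.3) of the gated cells. The 12-week-DB share was the lowest and its interval did not reach the other 3 estimates, but 1 library per condition allows no test between conditions, and the intervals cover counting error only. Among macrophages of the same libraries (at least 10 UMIs of the C1q genes), which should lack Il13, 0.301, 0.340, 0.692 and 1.25% of cells held 2 or more UMIs of it, at median depths of 9248, 10744, 11029 and 9421.5 UMIs against 7089, 6681, 7139 and 6043 in the gated cells. With every cell thinned to 2000 UMIs the Il13-positive shares were 11.4, 9.62, 13.4 and 15.4%, and the 21-week-DB share was then the highest. Il13-positive cells were deeper than Il13-negative cells, with median UMIs of 7972, 7492.5, 8240 and 6494 against 6768, 6449, 6725.5 and 5882.

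Il13 itself reached 837, 1312, 1193 and 1901 counts per 1000000 UMIs (CPM) in the sums of Il13-positive cells, and single cells held up to 56, 91, 88 and 220 UMIs. These values and those of the gate genes only describe the choice. Gata3 stood at 1279, 1611, 1316 and 1367 CPM in Il13-positive and at 871, 1016, 758 and 871 CPM in Il13-negative cells. Ctla2a stood at 1689, 2362, 2437 and 3823 against 1526, 2549, 2167 and 4159 CPM. Il7r, the IL-7 receptor chain, stood at 474, 589, 432 and 696 against 594, 660, 473 and 829 CPM. At the edge of the split, cells with exactly 1 Il13 UMI (49, 62, 61 and 135 cells) held Areg, the amphiregulin gene, at 160, 210, 132 and 391 CPM, and cells with exactly 2 (26, 26, 28 and 54 cells) held it at 395, 309, 272 and 305 CPM. At the edge of the gate, 15.5, 10.0, 11.0 and 11.3% of cells with 2 Gata3 UMIs were Il13-positive, and 10.4, 6.78, 6.76 and 8.0% of otherwise gated cells with 1 Gata3 UMI held 2 or more Il13 UMIs.

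The gated cells carried ILC2 markers in every library. The summed level of 10 ILC2 markers (Ctla2a, Gata3, Lmo4, Hlf, Il13, Il1rl1, Rora, Areg, Icos and Klrg1) was 8009 to 12378 CPM in Il13-positive and 4706 to 7947 CPM in Il13-negative cells, against 782 to 2357 CPM in the remaining kept cells. Gata3 and Ctla2a were part of the gate and Il13 made the split, so this sum partly restates the choice of cells. The paper lists these genes, and also Lmo4 and Hlf, as markers of its ILC2 cluster in the same data. In 21-week-DB, Ctla2a alone made up 4159 of the 7947 CPM in Il13-negative cells. The gate was not pure. The sum of 6 NK cell and ILC1 markers was 3.86 to 54.6 CPM in Il13-positive and 23.8 to 229 CPM in Il13-negative cells, and that of 6 stromal markers 14.9 to 32.3 against 63.7 to 386 CPM. Cells with at least 2 UMIs of NK-lineage transcripts (Ncr1, Klrb1c, Klrd1 and Ly6c2), at least 2 UMIs of Krt5 and Krt14 or any UMI of Trdc made up 16.1, 6.35, 10.1 and 5.83% of Il13-positive and 30.0, 17.6, 23.8 and 10.0% of Il13-negative cells. In Il13-positive cells 2 or 3 of the 6 NK cell and ILC1 markers were at 0 in each library, and in Il13-negative cells none was. Of 79 named called genes 72 could be tested without these cells and 66 kept their call, the exceptions being Tyrobp, Fcer1g, Txk, Tcf7, Cd163l1 and Atp1b1. The 13 T cell markers summed to 767 to 843 CPM in Il13-positive and 852 to 919 CPM in Il13-negative cells, mostly from the constant-region genes Trbc1 and Trbc2, with Cd3e and Trac at 0 by the rule. The remaining kept cells had 717 to 1657 CPM, in 12-week-WT below both groups. At least 1 UMI of 8 T cell receptor constant-region and CD3 genes was found in 88.0 to 94.6% of Il13-positive and 90.7 to 95.9% of Il13-negative cells, so that the gate kept T cells out by Cd3e, Trac and Foxp3 alone. Without cells holding Trdc or at least 2 UMIs of CD3 delta and gamma, 74 of 76 named genes that could be tested kept their call. Macrophage markers summed to 148 to 238 against 165 to 509 CPM, where the remaining kept cells had 4447 to 7801, and mast cell markers to 232 to 405 against 227 to 350 CPM. Dendritic cell markers summed to 223 to 5596 against 623 to 3450 CPM and were highest in 21-week-WT in both groups, neutrophil markers to 9.02 to 183 against 35 to 154 CPM, and ILC3 and type 17 markers to 33.5 to 272 against 64.1 to 143 CPM. Few barcodes occurred in 2 libraries (6 to 154 per pair), and they included 2, 3, 4 and 6 gated cells.

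Il13-positive cells carried more of many other effector transcripts and of the genes that lymphocytes switch on when stimulated. After Il13 and the gate genes were left out, 9522 genes had enough UMIs to be tested, of which 714 were higher in Il13-positive cells (7.5% of those tested) and 219 were lower (2.3%) at an adjusted p under 0.05 in edgeR's quasi-likelihood test with library as block. The fitted median over all genes was -0.02 on the log2 scale. That balance depended on the scaling: with total UMIs in place of TMM factors the median moved to -0.19 and the calls to 479 higher and 731 lower, so the higher share fell from 76.5% to 39.6% of calls. In Il13-negative cells drawn to match the depth of the Il13-positive ones, 576 were higher and 181 lower of 8390. Without the cells holding NK, keratin or Trdc transcripts, 811 were higher and 248 lower of 8932. Without the library block 125 were higher and 6 lower, and with 1 library left out the counts were 484 to 819 higher and 75 to 235 lower, the lowest without 12-week-DB (484 and 94) and without 21-week-WT (502 and 75).

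**Figure D1:**
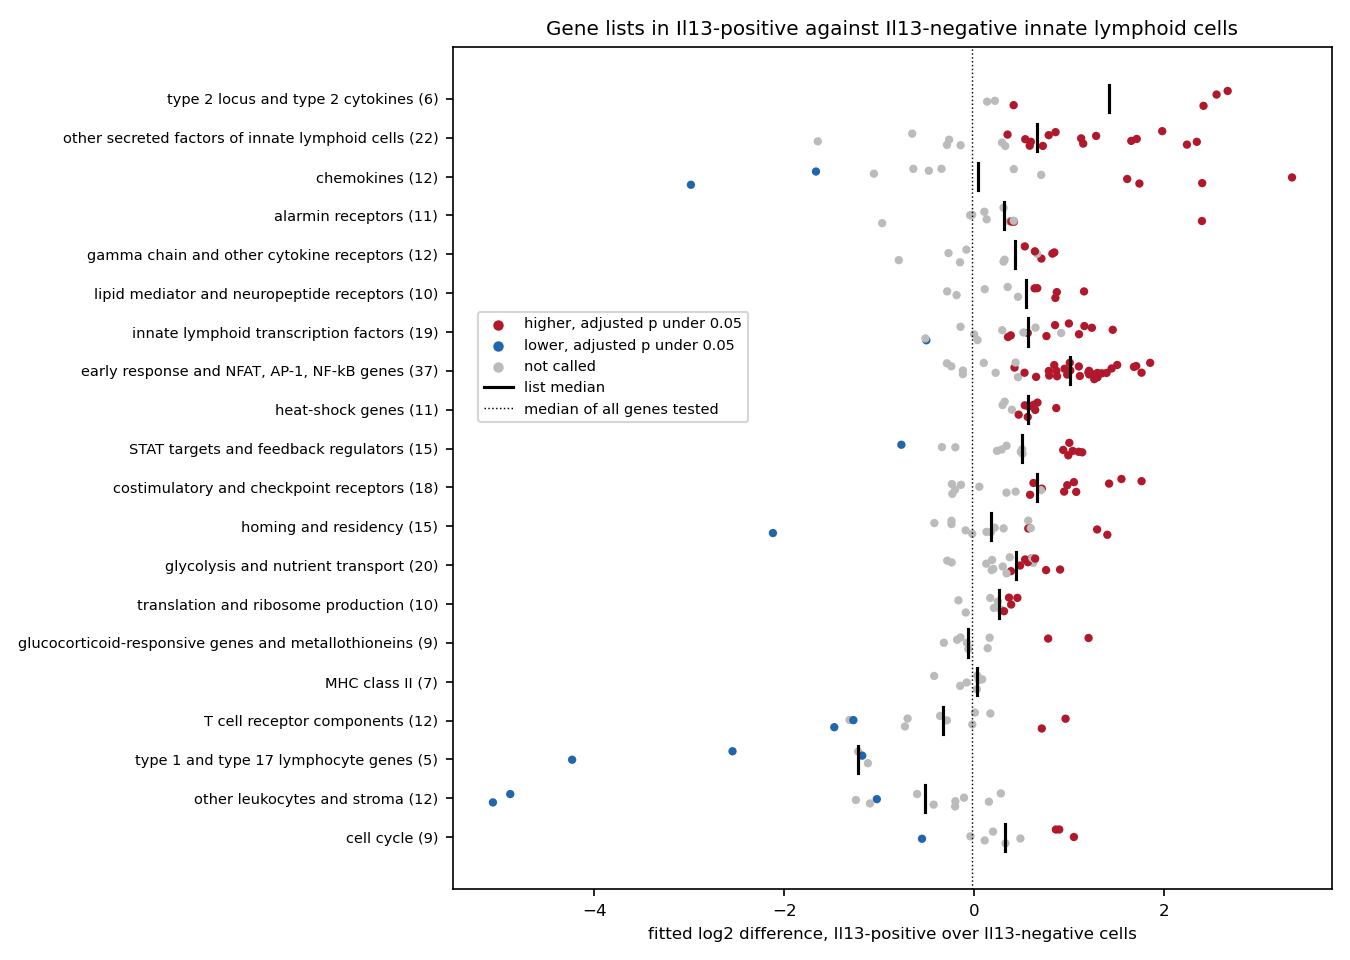
Fitted log2 difference between Il13-positive and Il13-negative innate lymphoid cells for the tested genes of each list, 1 point per gene, with the number tested in brackets, the list median as a vertical bar and the median of all genes as a dotted line. Early response genes lie almost all to the right (29 of 37 called higher, median 1.01), while type 1 and type 17 lymphocyte genes lie to the left (median -1.22).

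The type 2 locus was higher beyond Il13. The list of the locus and of type 2 cytokines had 8 genes, of which 6 were tested. Of these, 4 were called higher (Il4, Il5, Csf2 and Irf1) and none lower, with a median of 1.42 against -0.02 over all genes. Il5, the eosinophil growth factor, stood at 43.5, 240.3, 114 and 392 CPM in Il13-positive and 17.2, 39.3, 26.8 and 49.6 CPM in Il13-negative cells. All 4 libraries showed the difference, and the 12-week-WT Il13-positive level lay below the highest Il13-negative level (log2 difference 2.67 ± 0.20, adjusted p = 8.6e-06). Csf2, which supports myeloid cells, stood at 192, 487, 145 and 207 against 46.6, 48.4, 64.6 and 30.2 CPM. Its groups did not overlap (log2 difference 2.56 ± 0.28, adjusted p = 8.9e-05). The share of all tested genes whose groups do not overlap is not given, so here and below non-overlap only describes the named gene. Il4, which drives type 2 T cells and IgE, was scarce, at 7.45, 17.7, 17.9 and 36.5 against 4.91, 2.67, 1.97 and 8.3 CPM, and differed least in 12-week-WT (log2 difference 2.42 ± 0.32, adjusted p = 0.00030). Irf1, an interferon-regulated factor encoded between Il5 and Csf2, was only slightly higher (log2 difference 0.42 ± 0.12, adjusted p = 0.043) and lost its call when 12-week-WT, 12-week-DB or 21-week-DB was left out. Rad50, a DNA repair gene lying between Il13 and Il5, stood at 74.5, 81.8, 76.1 and 175 against 96.3, 96.2, 88.7 and 127 CPM and was not called (log2 difference 0.14 ± 0.15, adjusted p = 0.63). Il3 had no UMI in any of the 8 sums and Il9 had 2 in all, so neither was tested.

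Among the other secreted factors, 15 of 22 tested genes were higher and none was lower (median 0.66). Areg, an epidermal growth factor receptor ligand of tissue repair, stood at 370.0, 378, 504 and 635 CPM in Il13-positive and 73, 75.4, 84.3 and 207 CPM in Il13-negative cells. The groups did not overlap, and the highest Il13-negative level was that of 21-week-DB (log2 difference 2.35 ± 0.13, adjusted p = 1.2e-06). Tnfsf8, the CD30 ligand, stood at 185, 346, 212 and 117 against 34.3, 55.8, 73.7 and 61.4 CPM, also without overlap (log2 difference 1.98 ± 0.22, adjusted p = 0.00010). Tnfsf9, the 4-1BB ligand, behaved alike at 217, 296, 214 and 146 against 85.8, 74.6, 83.9 and 59.8 CPM (log2 difference 1.66 ± 0.13, adjusted p = 9.7e-06). Calca, which encodes the neuropeptide CGRP, stood at 57.1, 156, 61.1 and 368 against 17.2, 27.5, 17.3 and 222 CPM. It was higher in each pair but the 21-week-DB Il13-negative cells exceeded the Il13-positive cells of the other 3 libraries (log2 difference 1.72 ± 0.23, adjusted p = 0.00039). Lif, a cytokine of the IL-6 family, stood at 55.9, 279.8, 58.2 and 122 against 41.7, 92.2, 37 and 51 CPM and was highest in 12-week-DB (log2 difference 1.29 ± 0.18, adjusted p = 0.00055). Tnf (log2 difference 0.79 ± 0.17, adjusted p = 0.012) was also called, although not without 12-week-DB. Il22, a cytokine of type 17 lymphocytes, stood at 132, 0, 52.9 and 18.5 against 16.6, 10.2, 6.7 and 3.71 CPM and was higher in 3 of 4 libraries (log2 difference 2.24 ± 0.50, adjusted p = 0.011), a call lost without 21-week-WT, in depth-matched cells, at no more than 5% mitochondrial UMIs and with DESeq2. Ifng, the interferon-gamma gene of NK cells and other type 1 lymphocytes, stood at 247, 2.96, 12.7 and 0.859 against 78.5, 44.1, 47.3 and 30.2 CPM, higher in 12-week-WT and lower in the other 3 libraries, and was not called (log2 difference -0.65 ± 0.63, adjusted p = 0.58). Without 12-week-WT it was called lower (-2.87, adjusted p = 1.2e-05).

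**Figure D2:**
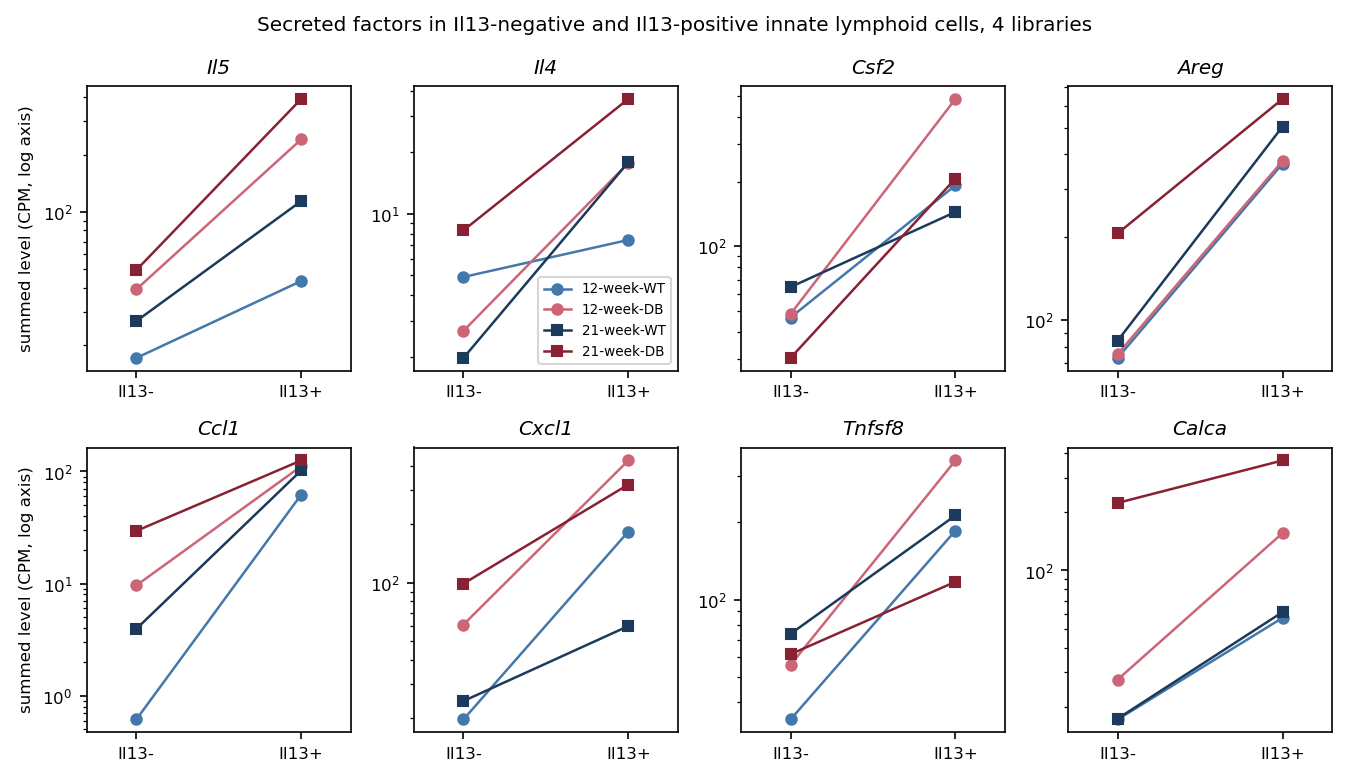
Level in CPM (log axis, own range in each panel) of 8 secreted factors in the summed Il13-negative and Il13-positive innate lymphoid cells, with 1 line per library. Each line rises from left to right, for Il5 from 17.2 to 43.5 CPM in 12-week-WT and from 49.6 to 392 CPM in 21-week-DB.

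Chemokine genes went both ways, with 4 of 12 higher, 2 lower and a median of 0.04. Ccl1, a ligand of the receptor Ccr8, stood at 62.1, 111, 102 and 125 CPM in Il13-positive and 0.613, 9.62, 3.94 and 29.5 CPM in Il13-negative cells, where 12-week-WT held a single UMI. Its groups did not overlap (log2 difference 3.35 ± 0.32, adjusted p = 3.3e-05). Cxcl1, a neutrophil attractant, stood at 184, 428, 59.6 and 322 against 19.6, 60.7, 24.4 and 98.9 CPM and was higher in each library (log2 difference 2.40 ± 0.23, adjusted p = 3.4e-05). Cxcl2, which acts on the same receptor, stood at 303, 936, 268 and 1508 against 143, 166, 267 and 374 CPM, with near-equal levels in 21-week-WT (log2 difference 1.61 ± 0.32, adjusted p = 0.0059). Xcl1, made by NK cells and some T cells, stood at 91.9, 0, 4.47 and 0 against 273, 73.2, 93.4 and 62.3 CPM, and Ccl4 at 29.8, 9.85, 9.69 and 7.3 against 44.2, 24.6, 95 and 24.4 CPM. Both were lower in each library (adjusted p = 0.0014 and 0.0056). Without the cells holding NK, keratin or Trdc transcripts Xcl1 had too few UMIs to be tested and Ccl4 had a log2 difference of -1.41 (adjusted p = 0.035).

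For Il5, Areg and Csf2 a larger share of Il13-positive cells held a transcript. At least 1 Il5 UMI was found in 25.8, 36.5, 23.2 and 38.8% of Il13-positive cells and in 9.22, 12.9, 8.43 and 9.26% of Il13-negative cells, while macrophages of the same libraries had 0.120, 0.623, 0.629 and 1.74%. Areg was found in 50.5, 55.6, 64.5 and 62.4% against 17.5, 17.6, 17.7 and 27.2%, with 5.47 to 10.4% in macrophages. Csf2 was found in 32.3, 42.1, 37.0 and 27.7% against 13.8, 11.8, 11.6 and 6.70%, with 0.905 to 1.51% in macrophages. The mean difference was 21.1 ± 6.77 percentage points (SD, n = 4 pairs) for Il5, 38.2 ± 6.04 for Areg, 23.8 ± 5.2 for Csf2, 7.51 ± 4.17 for Il4, 11.4 ± 4.03 for Ccl1 and 6.83 ± 3.83 for Calca, higher in 4 of 4 libraries each. The exact two-sided sign-flip permutation test gave p = 0.125 for each of these 6 genes, the smallest value that 4 pairs allow. Of the 21 genes examined, Il6, Il2, Il10, Tnf and Lif also reached it, higher in each library. Ccl4 and Xcl1 reached it too, lower in each library. In depth-matched cells Il6 and Tnf were higher in only 2 of 4 libraries and Il2 in 3, while Il10 and Lif were higher in 4. Thinned to 2000 UMIs, Il2 was higher in 2 libraries, Il6, Il10 and Tnf in 3, Lif in 4 and Ccl4 in 1. Ifng was found in a smaller share of Il13-positive cells in 4 of 4 libraries (-5.40 ± 2.86 points, p = 0.125 in the same exact test), although its 12-week-WT sum was higher. With all cells thinned to 2000 UMIs Il5 remained at 9.76, 20.3, 18.1 and 33.8% of Il13-positive against 3.97, 5.41, 3.04 and 5.63% of Il13-negative cells. Most Il13-positive cells held no Il5 UMI at this depth.

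Several genes also differed in level between finer classes of Il13 UMIs. In 21-week-DB, Il5 was 49.6, 40.7, 169, 338 and 625 CPM in cells with 0, 1, 2 to 4, 5 to 9 and 10 or more Il13 UMIs (896, 135, 117, 102 and 124 cells). Areg in the same classes of 21-week-WT was 84.3, 132, 327, 532 and 667 CPM (344, 61, 54, 32 and 52 cells). Txnip, an inhibitor of thioredoxin and of glucose uptake, was lower in the upper classes, at 734, 628, 428, 266 and 151 CPM. Il1rl1, the IL-33 receptor, varied between libraries: its level in 12-week-DB was 470.3, 278, 397, 616 and 913 CPM, in 21-week-DB 236, 304, 423, 539 and 736 CPM, in 12-week-WT 402, 315, 226, 76 and 203 CPM and in 21-week-WT 411, 246, 281, 235 and 469.8 CPM. Steady rises were not found in every library. In 12-week-WT, Il5 was 17.2, 18.1, 40.4, 38.0 and 52.9 CPM and Csf2 46.6, 215, 209, 165 and 181 CPM. Csf2 was highest in the class of 10 or more in the other libraries. Areg in 21-week-DB was 207, 391, 636, 557 and 691 CPM. Calca was highest in the class of 2 to 4 in both WT libraries and of 10 or more in both DB libraries. The classes share their cells with the split and are given without a test.

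**Figure D3:**
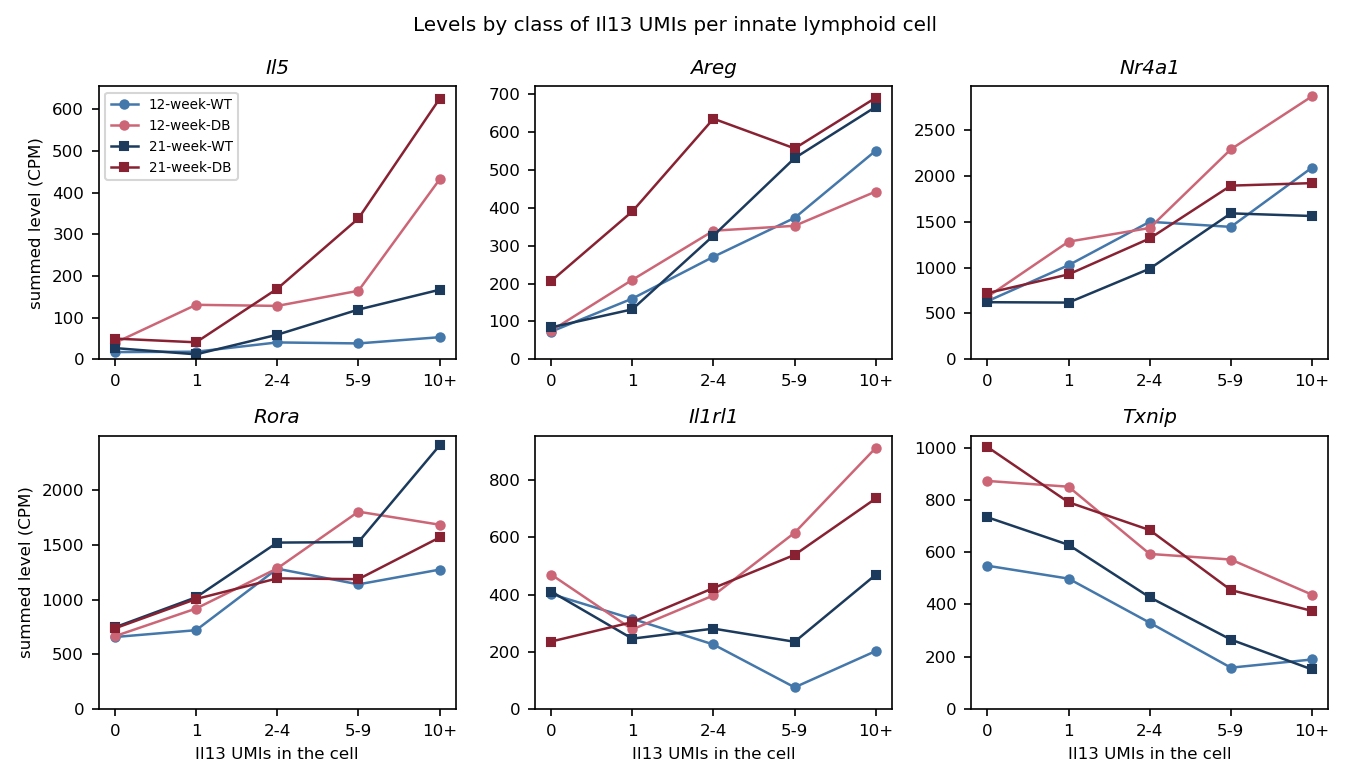
Level in CPM of 6 genes in innate lymphoid cells with 0, 1, 2 to 4, 5 to 9 and 10 or more Il13 UMIs, with 1 line per library. Il5, Areg, Nr4a1 and Rora are higher in the class of 10 or more than in the class of 0 in each library and Txnip is lower, while Il1rl1 is higher in 3 libraries and lower in 12-week-WT.

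The lists of receptors for alarmins, cytokines and lipid mediators had smaller medians than the secreted factors, a difference that was not tested. Of 11 alarmin receptor genes 3 were higher and none lower (median 0.31). Il1rl1 stood at 190.0, 633, 344 and 576 CPM in Il13-positive and 402, 470.3, 411 and 236 CPM in Il13-negative cells. It was lower in both WT libraries and higher in both DB libraries, and its overall difference was not called (log2 difference 0.31 ± 0.28, adjusted p = 0.55). Il17rb, the IL-25 receptor, was not called (log2 difference -0.04 ± 0.21, adjusted p = 0.94). Il1r2, the decoy receptor for IL-1, stood at 112, 35.5, 117 and 15 against 9.81, 8.82, 22.1 and 6.88 CPM and was the strongest of the list (log2 difference 2.40 ± 0.25, adjusted p = 5.4e-05). Of 12 receptors for common gamma chain and other cytokines 5 were higher (median 0.43), among them Il2ra, the high-affinity IL-2 receptor chain, at 389, 664, 533 and 563 against 278, 494, 354 and 347 CPM (log2 difference 0.71 ± 0.09, adjusted p = 0.00032). The list also held Il4ra (log2 difference 0.83 ± 0.11, adjusted p = 0.00045) and the IL-10 receptor chain Il10ra (log2 difference 0.85 ± 0.14, adjusted p = 0.0015). Of 16 receptors for lipid mediators and neuropeptides 10 were tested and 5 were higher (median 0.55). Ptger4, a prostaglandin E2 receptor, stood at 215, 165, 149 and 104 against 134, 98.6, 83.5 and 70.8 CPM (log2 difference 0.86 ± 0.09, adjusted p = 9.0e-05), and the prostacyclin receptor Ptgir differed by a like amount (log2 difference 0.87 ± 0.14, adjusted p = 0.0011). Ramp3, a partner chain of the CGRP and adrenomedullin receptors, stood at 28.6, 59.1, 72.3 and 243 against 21.5, 23, 36.2 and 126 CPM, highest in 21-week-DB (log2 difference 1.16 ± 0.14, adjusted p = 0.00017).

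Of 19 tested transcription factors of innate lymphoid cells, 10 were higher, 1 was lower and the median was 0.57. Rora, the ILC2 lineage factor, stood at 1253, 1569, 1868 and 1336 CPM in Il13-positive and 659, 666, 747 and 738 CPM in Il13-negative cells. Its groups did not overlap (log2 difference 1.24 ± 0.10, adjusted p = 9.7e-06). Bhlhe40, a repressor that supports cytokine production, stood at 685, 793, 722 and 416 against 342, 248, 370.0 and 141 CPM, again without overlap (log2 difference 1.46 ± 0.14, adjusted p = 3.9e-05). Id2, the inhibitor of E proteins that all innate lymphoid cells require, stood at 2338, 2879, 2103 and 2435 against 1839, 1627, 1347 and 1242 CPM (log2 difference 0.85 ± 0.12, adjusted p = 0.00051). Nfil3 (log2 difference 1.16 ± 0.11, adjusted p = 2.8e-05) and Lmo4 (log2 difference 1.0 ± 0.11, adjusted p = 0.00011) were higher by similar amounts. Tcf7, a factor of innate lymphoid progenitors and T cells, was lower (log2 difference -0.50 ± 0.14, adjusted p = 0.039), but without the cells holding NK, keratin or Trdc transcripts its log2 difference was -0.08, and only the fit without 12-week-WT kept the call when 1 library was left out.

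The early response genes, which lymphocytes induce within an hour or so of stimulation through calcium, AP-1 and NF-kB signalling, had the largest share of higher genes of any list. Of 37 tested, 29 were higher and none was lower, with a median of 1.01, and the count was 27 with total UMIs as the scale, 29 in depth-matched cells and 30 of 36 without the cells holding NK, keratin or Trdc transcripts. Nr4a1, an orphan nuclear receptor induced by antigen and cytokine receptors, stood at 1655, 2161, 1344 and 1712 CPM in Il13-positive and 633, 680.3, 623 and 722 CPM in Il13-negative cells (log2 difference 1.51 ± 0.11, adjusted p = 8.6e-06). Nfkbia, the NF-kB inhibitor and itself an NF-kB target, stood at 2368, 2378, 1867 and 2659 against 960.3, 832, 927 and 1046 CPM (log2 difference 1.45 ± 0.11, adjusted p = 8.6e-06). Gadd45b, a stress kinase activator, stood at 1091, 1155, 1079.6 and 1288 against 320.1, 306, 418 and 385 CPM (log2 difference 1.86 ± 0.12, adjusted p = 2.3e-06). In each of these 3 genes the lowest Il13-positive level was above the highest Il13-negative level. Irf4 (log2 difference 1.77 ± 0.21, adjusted p = 0.00015), Rel (log2 difference 1.35 ± 0.13, adjusted p = 3.4e-05) and Nr4a3 (log2 difference 1.69 ± 0.13, adjusted p = 8.6e-06) were higher too. The AP-1 genes Fos and Jun were not called. Fos stood at 971, 1228, 657 and 1743 against 903, 787, 797 and 1052 CPM (log2 difference 0.46 ± 0.16, adjusted p = 0.098). Jun stood at 225, 367, 233 and 483 against 499, 269, 379 and 581 CPM (log2 difference -0.24 ± 0.20, adjusted p = 0.53). Cell handling also induces early response genes, and the paws were digested at 37 °C for up to 2 hours. The part of digestion in the levels of these genes, called or not, was not tested.

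Of 11 heat-shock genes 8 were higher (median 0.57), led by the endoplasmic reticulum chaperone Hspa5 (log2 difference 0.87 ± 0.11, adjusted p = 0.00017) and the constitutive chaperone Hspa8 (log2 difference 0.67 ± 0.11, adjusted p = 0.0019). The inducible pair Hspa1a and Hspa1b, whose near-identical transcripts share reads and are therefore uncertain, were not called (log2 differences 0.32 and 0.30). Among 15 STAT targets and feedback regulators 6 were higher and 1 was lower (median 0.51). Cish, a STAT5-induced inhibitor of cytokine signalling, stood at 536, 537, 415 and 338 CPM in Il13-positive and 264, 310.0, 251 and 221 CPM in Il13-negative cells (log2 difference 0.94 ± 0.09, adjusted p = 3.9e-05). Bcl2, a survival factor, was lower at 64.6, 96.5, 54.4 and 125 against 138, 170.0, 135 and 199 CPM (log2 difference -0.76 ± 0.13, adjusted p = 0.0025), while its relative Bcl2l1 was higher (log2 difference 1.04 ± 0.17, adjusted p = 0.0016). Rgs1 (log2 difference 1.14 ± 0.11, adjusted p = 2.8e-05) and Rgs2 (log2 difference 1.10 ± 0.11, adjusted p = 4.6e-05), regulators of G-protein signalling, were higher.

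Of 18 costimulatory and checkpoint receptors 10 were higher and none lower (median 0.67). Icos, a costimulatory receptor ILC2s need, stood at 474, 489.6, 402 and 414 CPM in Il13-positive and 156, 209, 132 and 255 CPM in Il13-negative cells (log2 difference 1.42 ± 0.12, adjusted p = 1.8e-05). Pdcd1, the inhibitory receptor PD-1, stood at 9.93, 22.7, 38.8 and 84.1 against 3.68, 9.09, 13 and 25.6 CPM, highest in 21-week-DB (log2 difference 1.77 ± 0.17, adjusted p = 2.8e-05). Tnfrsf4, the OX40 receptor, was also higher (log2 difference 1.55 ± 0.17, adjusted p = 9.7e-05), and the maturity marker Klrg1 was not called (log2 difference -0.23 ± 0.24, adjusted p = 0.61). Homing genes were mixed, with 3 of 15 higher, 1 lower and a median of 0.18. Cxcr4 stood at 353, 624, 382 and 371 against 170.5, 239.7, 181 and 181 CPM (log2 difference 1.3 ± 0.10, adjusted p = 9.7e-06). Ccr8, the receptor of the chemokine Ccl1, stood at 38.5, 57.1, 55.9 and 46.4 against 22.7, 16.6, 16.5 and 27.7 CPM (log2 difference 1.41 ± 0.19, adjusted p = 0.00049). Glycolysis and nutrient transport had 8 of 20 genes higher (median 0.44), among them the hypoxia-inducible factor Hif1a (log2 difference 0.76 ± 0.11, adjusted p = 0.00053), lactate dehydrogenase Ldha (log2 difference 0.57 ± 0.09, adjusted p = 0.00097) and ornithine decarboxylase Odc1 (log2 difference 0.91 ± 0.18, adjusted p = 0.0054). With total UMIs as the scale that count was 5. Translation genes had 4 of 10 higher (median 0.27) but 0 with total UMIs. Among 9 glucocorticoid-responsive genes and metallothioneins 2 were higher (median -0.06), Nr3c1, the glucocorticoid receptor (log2 difference 0.78 ± 0.09, adjusted p = 0.00017), and the cell-cycle inhibitor Cdkn1a (log2 difference 1.21 ± 0.13, adjusted p = 8.6e-05). None of 7 MHC class II genes was called (median 0.03). Of 9 cell-cycle genes 3 were higher and 1 lower (median 0.33), and Mki67 stood at 132, 53.2, 124 and 14.2 against 75.4, 31.3, 44.5 and 11.5 CPM (log2 difference 1.05 ± 0.16, adjusted p = 0.00075).

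The 15 genes with the largest higher difference among well-covered genes that moved the same way in all 4 libraries included, outside the lists, Fas, the death receptor, at 60.8, 67, 184 and 82 CPM in Il13-positive and 16.6, 18.2, 22.1 and 39.7 CPM in Il13-negative cells (log2 difference 2.07 ± 0.24, adjusted p = 0.00011). Hilpda, a hypoxia-induced lipid droplet protein, stood at 293, 917, 327 and 1397 against 95, 131, 124 and 433 CPM (log2 difference 2.06 ± 0.20, adjusted p = 3.4e-05). Basp1 (log2 difference 1.96 ± 0.18, adjusted p = 2.8e-05) and the noncoding Snhg15 (log2 difference 1.67 ± 0.11, adjusted p = 4.4e-06) were of the same group.

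Some of the genes lower in Il13-positive cells lost their difference when the cells with NK, keratin or Trdc transcripts were left out, and others kept it. Of the type 1 and type 17 genes 5 of 11 were tested, 3 were lower and the median was -1.22. Klrd1, an NK cell receptor, stood at 28.6, 7.88, 5.96 and 3.01 CPM in Il13-positive and 123, 43.6, 60.7 and 29.5 CPM in Il13-negative cells, and Ly6c2, an antigen of NK and memory T cells with a near-identical copy, at 13.7, 2.96, 10.4 and 0.859 against 136, 79.4, 147 and 35.1 CPM. Trdc, the constant region of the gamma-delta T cell receptor, stood at 16.1, 17.7, 7.46 and 8.59 against 46.6, 38.2, 39.4 and 26.8 CPM (log2 difference -1.47 ± 0.22, adjusted p = 0.00075). Of 12 tested leukocyte and stromal genes 3 were lower (Ighm, Krt5 and Krt14), of which the keratins had no call without 12-week-WT and Ighm none without 21-week-WT. These transcripts partly define the other cells in the gate. Without those cells, Tyrobp went from -1.39 to -0.18, Fcer1g from -1.11 to -0.16 and Txk from -1.19 to -0.24 on the log2 scale, and none of the 3 remained called.

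Other lower genes kept their difference without those cells. Txnip stood at 257, 535, 285 and 501 CPM in Il13-positive and 548, 872, 734 and 1002 CPM in Il13-negative cells (log2 difference -0.88 ± 0.12, adjusted p = 0.00052), and at -0.90 on the log2 scale without the cells holding NK, keratin or Trdc transcripts. Stc2, a secreted regulator of calcium and phosphate, stood at 13.7, 55.2, 21.6 and 31.3 against 61.9, 131, 54.8 and 52.3 CPM (log2 difference -1.04 ± 0.18, adjusted p = 0.0027; -1.22 without those cells). Gimap3 and Gimap1, GTPases of lymphocyte survival, differed by -0.88 and -0.74 on the log2 scale, and by -0.89 and -0.79 without those cells. Ripor2 (-0.79, then -0.83), Tmem158 (-0.73, then -0.86) and Ypel3 (-0.72, then -0.64) did the same. The call of Gimap1 was lost without 21-week-WT and that of Ypel3 without either 12-week-DB or 21-week-WT. The T cell receptor list had 2 of 12 genes higher (Trdv4 and Cd28) and 2 lower (Trdc and Cd163l1), with a median of -0.32. Cd163l1, a scavenger receptor of gamma-delta T cells, differed by -1.27 on the log2 scale, and by -0.12 without the cells holding NK, keratin or Trdc transcripts (adjusted p = 0.86). Trdv4, a delta-chain variable gene, stood at 102, 98.5, 40.3 and 88.4 against 49.7, 43.6, 30.7 and 59.5 CPM (log2 difference 0.97 ± 0.15, adjusted p = 0.00093).

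The design also allowed the Il13 difference of the 2 DB libraries to be compared with that of the 2 WT libraries, each pair holding both ages. The interaction of Il13 group and genotype was called for 60 of 9522 genes (0.63%), with a difference that was more positive in DB than in WT for 50 of them and less positive for 10, and 887 passed an unadjusted p under 0.05. Without the library block 0 were called, and with 1 library left out 84 to 160. Il1rl1 was among them: the ratio of Il13-positive to Il13-negative cells was 0.472, 1.35, 0.838 and 2.44, below 1 in both WT libraries and above 1 in both DB libraries. Its interaction was 1.65 ± 0.26 log2 units (adjusted p = 0.0063), and 1.86 without the cells holding NK, keratin or Trdc transcripts. The Il13-negative level was highest in 12-week-DB and lowest in 21-week-DB, so the ratio moved with both groups. Csf2 had ratios of 4.13, 10.1, 2.24 and 6.86, above 1 throughout and larger in DB (interaction 1.67, adjusted p = 0.0067). Cxcl2 had ratios of 2.11, 5.64, 1.01 and 4.04 (interaction 1.91, adjusted p = 0.0018).

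Of the lists, early response genes had 6 of 37 called with a more positive difference in DB (median 0.49) and heat-shock genes 5 of 11 (median 0.64), against a median of 0.00 over all genes. Fos had ratios of 1.08, 1.56, 0.824 and 1.66 (interaction 0.94, adjusted p = 0.0042) and Hspa1b ratios of 0.938, 1.49, 0.811 and 1.31 (interaction 0.84, adjusted p = 0.0014). Bhlhe40 had ratios of 2.01, 3.2, 1.95 and 2.96 (interaction 0.80, adjusted p = 0.015). This call was lost without the cells holding NK, keratin or Trdc transcripts (adjusted p = 0.072) and in depth-matched cells (0.061). Areg, Rora, Icos, Nr4a1 and Nfkbia were not called: the interaction was -0.38 for Areg, 0.07 for Rora, -0.49 for Icos, 0.37 for Nr4a1 and 0.44 for Nfkbia, with adjusted p of 0.62, 0.93, 0.34, 0.41 and 0.18. Il5 was 1.13 (adjusted p = 0.074). Each genotype was 2 pooled libraries. Cells with NK-lineage transcripts were 6.45 and 3.62% of Il13-positive cells in WT against 0.794 and 0% in DB. Among Il13-negative cells, such cells were 20.3 and 15.7% in WT against 8.41 and 4.35% in DB. Without the cells holding NK, keratin or Trdc transcripts the interaction was called for 20 of 8932 genes, which still held Il1rl1, Csf2, Cxcl2, Fos and Hspa1b. The early response list then held 1 call of 36 (median 0.36) and the heat-shock list 1 of 11 (median 0.49). That filter did not screen for transcripts of dendritic cells, macrophages, neutrophils or B cells. The interaction with age was called for 0 of 9522 genes (0%) by edgeR, with 327 genes at an unadjusted p under 0.05 and a smallest adjusted p of 0.136.

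**Figure D4:**
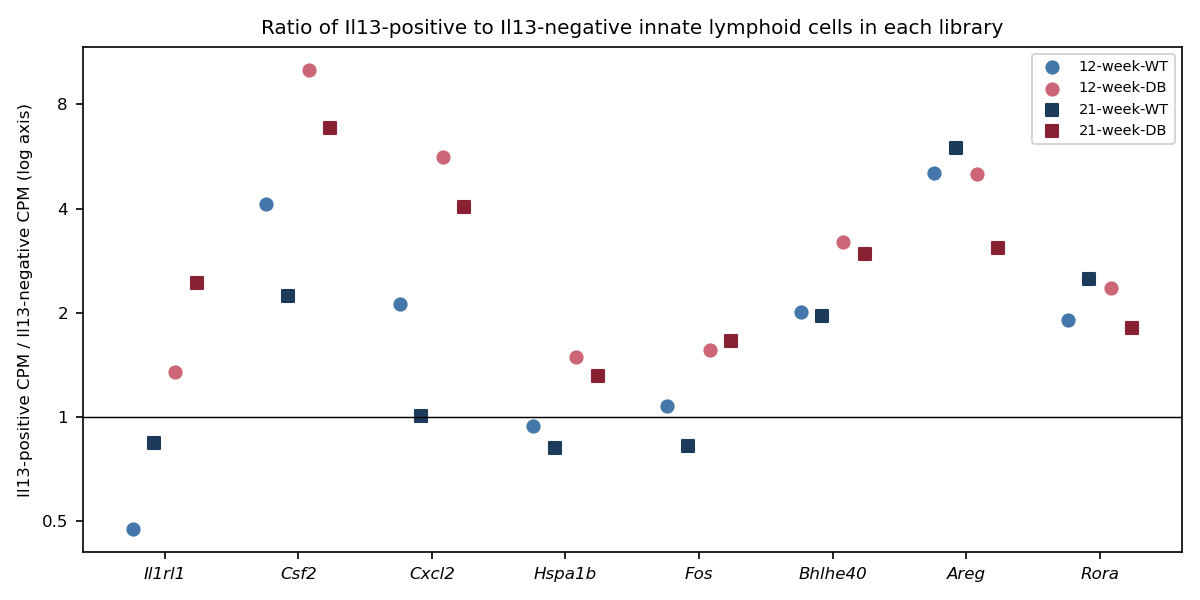
Ratio of the level in Il13-positive to that in Il13-negative innate lymphoid cells (log axis) for 8 genes, 1 point per library, with a line at a ratio of 1. For Il1rl1 the WT points lie at 0.472 and 0.838 and the DB points at 1.35 and 2.44, while for Areg and Rora all 4 points lie above 1 with DB and WT interleaved.

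The same split was made in T cells of the same libraries (Cd3e at least 2 UMIs, 4740 cells), of which 29, 59, 33 and 51 held 2 or more Il13 UMIs (4.6, 4.58, 2.71 and 3.17%). In T cells 364 of 10251 genes were higher in Il13-positive cells (3.55%) and 146 lower (1.42%), with a median of -0.03. The early response list had 17 of 37 genes higher there (median 0.48) and the heat-shock list 6 of 11. The difference between the cell types was called for 201 of 10383 genes (1.94%), 102 with the more positive difference in innate lymphoid cells and 99 in T cells. 10 of the 37 early response genes were among the first, and none of the 11 heat-shock genes was called. In cells matched on depth the count was 61 of 7759, with 5 of 36 early response genes.

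Rora differed by 1.24 in innate lymphoid and 0.23 log2 units in T cells (difference 0.99, adjusted p = 0.0012, or 0.058 in depth-matched cells). Icos differed by 1.42 against 0.38 (difference 1.02, adjusted p = 0.0074, or 0.37 when matched), Nfkbia by 1.45 against 0.41 (difference 1.02, adjusted p = 0.00042) and Nr4a1 by 1.51 against 0.68 (difference 0.81, adjusted p = 0.0061). Pdcd1, Cish and Il2ra were higher in Il13-positive innate lymphoid cells and had T cell estimates of -0.18, -0.06 and -0.15. Areg was 2.35 against 1.44 (difference 0.88, adjusted p = 0.0088, or 0.63 in depth-matched cells). The calls of Areg, Icos and Nr4a1 were lost when either 12-week library was left out. Ccl1 went the other way, 3.35 against 5.91 (difference -2.53, adjusted p = 0.025, not called without 21-week-DB or in depth-matched cells), as did Atp1b1, a sodium pump subunit, at -0.85 against 1.61 (difference -2.50, adjusted p = 0.00028). Without the cells holding NK, keratin or Trdc transcripts the difference of Atp1b1 in innate lymphoid cells was -0.49 and was not called (adjusted p = 0.061). Il5 was strongly higher in both, 2.67 against 3.92, and the difference was not called (-1.41, adjusted p = 0.15). The T cell gate was set by Cd3e and holds several T cell types, and its Il13-positive groups were of 29 to 59 cells. Removing the highest doublet scores left 25, 51, 26 and 36 of these Il13-positive cells. Of 577, 1139, 1145 and 1476 Il13-negative T cells it left 550, 1071, 1078 and 1370. The comparison of the cell types was not run with those scores removed. Of the macrophages, 0.301 to 1.25% also held 2 or more Il13 UMIs.

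**Figure D5:**
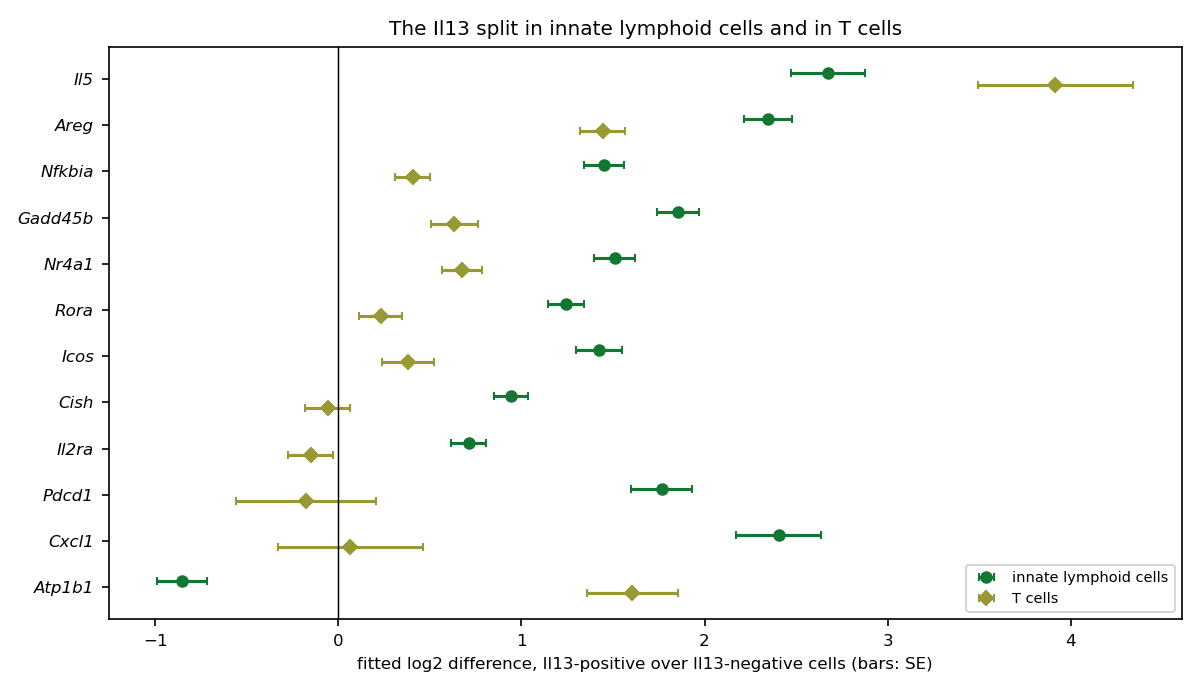
Fitted log2 difference with its standard error between Il13-positive and Il13-negative cells for 12 genes, in innate lymphoid cells and in T cells of the same 4 libraries. Rora, Icos and Nfkbia lie further right in innate lymphoid cells (1.24, 1.42 and 1.45) than in T cells (0.23, 0.38 and 0.41), and Il5 lies to the right in both.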

How the data were processed

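CD45+ cells sorted from digested hindpaws were sequenced with the 10x Genomics 3' v3 chemistry, and the authors deposited 1 filtered matrix per library with UMI counts per gene and cell, aligned to mm10 with Cell Ranger (5.0.0 in the headers of the 12-week matrices, 6.0.0 in those of the 21-week matrices). The matrices held 47851794, 57025899, 69626521 and 54989592 UMIs for 12-week-WT, then 12-week-DB, then 21-week-WT, and last 21-week-DB. They were read as raw counts with Python 3.11.15 and scipy 1.17.1. The ambient RNA removal that the study describes was not repeated. Cells, groups and gene lists were chosen with earlier results of these data known.

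UMIs were summed per Il13 group and library, genes were filtered with filterByExpr, scaled by TMM and tested with edgeR 4.0.16 (limma 3.58.1, R 4.3.3) by the quasi-likelihood test with library as block, and p-values were adjusted by Benjamini-Hochberg over all genes tested. Interactions with genotype, age and cell type were tested in the same way, and fitted log2 differences are given with their standard errors. Both sums of a pair come from 1 library, and their deviations from the group means correlated at 0.70, 0.51, 0.65 and 0.87 over 2000 genes. Named genes were those of the lists, the gate genes, the 15 called genes with the largest difference each way (mean of at least 50 CPM, same direction in 4 of 4 libraries) and the 5 with the largest interaction each way. On simulated data with 9309 genes the main comparison recovered 79% of 100 genes changed by 1 log2 unit and 96% of 100 changed by 2, with 8 false calls. The simulated counts had the dispersion of the fitted trend and the same change in each library. They do not cover genes that vary more or whose difference varies between libraries. Shares carry exact Clopper-Pearson 95% intervals, which cover counting error only. Scrublet in scanpy 1.11.5 called 0 to 2 doublets per library, which was too few to have worked, so doublets were kept and an alternative removed the highest scores (0.8% per 1000 barcodes). Alternatives varied scaling, filter, Il13 threshold, depth, gate and libraries, and used DESeq2 1.42.0.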

Additional observations from a re-analysis of the deposited data

Results flagged for a closer look

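Differences between genotypes, tested by the interaction of Il13 group and genotype in edgeR, were called for 60 genes. Among well-covered genes with the largest differences, the Il13 difference was smaller or more negative in DB for Xcl1 (-8.12 log2 units, where the Il13-positive cells of both DB libraries held 0 UMIs, so the size depends on the prior count), S100a9 (-3.63), Gzmc (-3.17), Il1b (-2.81) and Hist1h2ap (-2.05). It was more positive in DB for Ccl5 (4.52), Hspb1 (2.27), Cxcl2 (1.91), Gimap6 (1.68) and Csf2 (1.67). Csf2 and Cxcl2 had the higher ratios of Il13-positive to Il13-negative cells in DB, whereas Ccl5, Hspb1 and Gimap6 were lower in Il13-positive cells of both WT libraries and had ratios of 1.10 to 1.39, 1.11 to 1.56 and 1.09 to 1.46 in DB. Il1rl1 (1.65) was called as well and was the listed receptor with opposite signs in the WT and DB libraries. Without the cells holding NK, keratin or Trdc transcripts Hspb1 was at -0.32 and no longer called, and Gimap6 had an adjusted p of 0.052. Xcl1 and Gzmc then had too few UMIs to be tested. With 1 library left out Xcl1 and Hspb1 lost the call without 12-week-WT (adjusted p = 0.067 and 0.32) and Gzmc without 12-week-DB (0.26), with ranges of 1.08 to 4.02 for Hspb1 and -7.23 to -2.21 for Gzmc. In depth-matched cells Gzmc, Hist1h2ap, Hspb1 and Gimap6 were not called (adjusted p = 0.15, 0.14, 0.059 and 0.064).

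Differences between innate lymphoid and T cells, tested by the interaction with cell type, were called for 201 genes. The Il13 difference was smaller or more negative in innate lymphoid cells for Xcl1 (-4.80), Ly6c2 (-3.41), Gzmc (-2.87), Ccl1 (-2.53) and Atp1b1 (-2.50). It was more positive in them for Cxcl1 (2.16), Arl5c (1.97), Pde4b (1.55), F2r (1.53) and Bcl2a1d (1.46, a gene with near-identical copies). F2r had ratios of only 1.0 to 1.14 in innate lymphoid cells and was lower in the Il13-positive T cells of each library. Cxcl1 and Gzmc lost the call without 12-week-WT or without 12-week-DB, Ly6c2 without 12-week-DB and Ccl1 without 21-week-DB. In depth-matched cells Cxcl1, Gzmc, Ly6c2, Ccl1 and Bcl2a1d were not called (adjusted p = 0.14, 0.13, 0.17, 0.25 and 0.058).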

How the results depend on the processing

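Against 714 genes higher and 219 lower, total counts without TMM gave 731 lower, no filter on low counts 510 lower, at most 5% mitochondrial UMIs 120 lower, at least 1 Gata3 UMI 338 lower and DESeq2 60 lower; thinning to 2000 UMIs gave 408 higher and 100 lower of 5851 genes. The no replicate block fit, which drops the pairing of sums by library, gave 125 higher and 6 lower. Leaving out 1 library gave 484 to 819 higher and 75 to 235 lower. Of 79 named called genes none changed direction under any setting except Tcf7, and 53 lost their call without the block. The 60 genotype differences became 162 without the filter, 39 with Il13 at 5 or more UMIs, 20 without the cells of other lineages, 0 without the block and 84 to 160 with 1 library left out, where the lone library of a genotype is assumed to vary like the others. The 0 age differences became 22 without the filter and 8 to 29 with 1 library left out. The 201 differences from T cells became 449 without the filter, 61 in depth-matched cells and 60 to 230 with 1 library left out. The causes of these changes were not tested.

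The Il13-positive share moved with the Il13 threshold and with depth: at 1 or more UMIs it was 39.6, 26.0, 36.6 and 34.8%, at 5 or more 10.9, 10.4, 15.5 and 16.4%, and thinned to 2000 UMIs 11.4, 9.62, 13.4 and 15.4%. Without cells holding T cell receptor transcripts it was 33.3% (5 of 15 cells), 25% (10 of 40), 26.7% (8 of 30) and 28.7% (41 of 143), a filter that removed most of the gate and left an interval of 11.8 to 61.6% in 12-week-WT. At least 1 Il1rl1 UMI gave 18.4% in 12-week-WT and 34.2% in 21-week-DB, at most 5% mitochondrial UMIs 31.7% in 12-week-WT, and at least 1 Gata3 UMI 21.4% in 21-week-WT and 21% in 21-week-DB.

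Direction changed mostly in genes that were not called. With 1 library left out Jun ranged from -0.54 to 0.018, Il1rl1 from -0.14 (without 21-week-DB) to 0.69, Klrg1 from -0.69 to 0.023, Rad50 from -0.15 to 0.25 and Il17rb from -0.19 to 0.10. Jun was at 0.043 with Il13 at 1 or more UMIs, Ifng at 0.36 without the block (but called lower at -3.48 with Il13 at 5 or more UMIs and at -4.88 after thinning), Klrg1 at 0.049 with Il13 at 5 or more UMIs and at 0.43 after thinning, and Rad50 at -0.031 with total counts. Il17rb was at 0.19 and 0.098 with Il13 at 1 and at 5 or more UMIs, 0.020 with doublet scores removed, 0.11 with 1 Gata3 UMI and 0.019 without Trdc and Cd3 transcripts. Among called genes, Tcf7 was at 0.19 with at least 1 Il1rl1 UMI, and the genotype difference of Hspb1 at -0.32 without the cells holding NK, keratin or Trdc transcripts. The difference of Gzmc from T cells ranged from -3.44 to 0.77 (without 12-week-DB) with 1 library left out.

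The fit without T cell receptor transcripts (as few as 5 cells in a sum) and the T cell comparison at 5 or more Il13 UMIs (as few as 6) were not run. An Il13 count of 0 means that none was detected at this depth, and 1 pooled library per condition limits every statement on genotype or age.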
